A study of Mus musculus with 158 samples.

Results

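The accessible DNA around 8 mouse genes, Nfia, Nfib, Nfic, Nfix, Runx1, Runx2, Runx3 and Cbfb, was compared between 4 tissues and 5 hybrid genotypes. These are the 4 nuclear factor I (NFI) genes, the 3 RUNX genes and the gene of their shared partner, and they were taken by name from 21755 protein-coding genes of the autosomes and chromosome X. For each, the DNase I hotspots overlapping its gene body (GENCODE vM21 annotation, mm10) and 20 kb on both sides were collected, which is called its window here. A hotspot is a stretch where DNase I, an enzyme that cuts accessible DNA, left more cuts than the background, at a false discovery rate (FDR) of 5%.

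NFI proteins bind DNA as dimers at a palindrome made of TTGGC, 5 free bases and GCCAA. Nfia is best known from glial cells and kidney tract development, Nfib from lung maturation, Nfic from tooth root formation, and Nfix from brain, muscle and blood progenitors. RUNX proteins bind a short core, TGTGGT or TGCGGT, through the Runt domain. Runx1 is required for the first blood stem cells, Runx2 for bone-forming cells, and Runx3 for cytotoxic T cells and sensory neurons. Cbfb encodes the non-DNA-binding beta subunit that strengthens RUNX binding. Each RUNX gene is transcribed from a distal and a proximal promoter, which give proteins with different N-terminal ends.

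The mice were F1 hybrids of C57BL/6J (B6) mothers and fathers of the inbred strain named after the x in B6x129 and in B6xSPRET (SPRET/EiJ), B6xPWK (PWK/PhJ), B6xCAST (CAST/EiJ) and B6xC3H (C3H/HeJ), so every set carries 1 C57BL/6J genome. The 4 tissues were whole liver, whole kidney, whole lung and B cells from femoral marrow of 8-week-old females, left after depletion of cells bearing CD43 and Mac-1. Solid tissues were usually pooled from several mice and hold many cell types. For each of the 20 pairs of hybrid and tissue, the replicate samples (2 to 6, 67 in all) were merged before hotspots were called, so there is 1 set per pair. The 5 hybrids were therefore used as the repeats of a tissue (n = 5) and the 4 tissues as the repeats of a hybrid. One further DNase set and 1 CTCF ChIP set came from B6xCAST mouse embryonic stem cells (mESC).

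The sets held 211762 to 295565 hotspots in liver, 186061 to 238917 in kidney, 152006 to 281978 in lung and 78387 to 156078 in B cells. The covered length ran from 29 to 68.7 Mb for B cells, 43.8 to 97 Mb for lung and 63.6 to 85.2 Mb for kidney, and was at least 78.4 Mb for liver. Covered bp in a window were therefore also given scaled to the total of the set. All 5 defining genes listed for each tissue had a hotspot at a start in all 5 of its sets, for example Apoa1 in liver, Slc34a1 in kidney, Sftpc in lung and Cd79a in B cells, although some (Slc12a3, Ebf1) were open in all 20 sets. B cell genes were also open in lung, where Cd79a and Cd79b each had a hotspot in 4 of 5 sets, and a lung set had 2 to 5 of the 5 listed B cell genes open, against 2 to 4 in liver, 1 to 2 in kidney and 5 in every B cell set. In B cell sets, Itgam, which encodes part of the Mac-1 antigen used for depletion, had a hotspot in 5 of 5 sets. The other listed myeloid genes had one in 4 sets (Csf1r) or in 1 (Lyz2 and Mpo). Among endothelial genes, Pecam1 and Cdh5 had one in 5 B cell sets and Tie1 in none. Among fibroblast genes, Col1a1 had one in 5 B cell sets, Pdgfra in 3 and Col1a2 in none. Of the other lists, a set held at most 3 of 4 T cell, 4 of 4 myeloid, 1 of 2 erythroid (Hbb-b1 was not matched), 2 of 2 megakaryocyte, 3 of 3 endothelial and 3 of 3 fibroblast genes, and the mESC set held 3 of 3 stem cell genes. Fewer cells of a type and less accessible DNA per cell cannot be told apart in such bulk sets.

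Many annotated starts and sites inside the genes were open in some tissues and not in others. As examples, the mm10 sequences of 3 such starts and 3 such sites (300 bases each, from the GRCm38 reference of C57BL/6J) are shown, since the results below describe them. The start windows run from 250 bases before to 50 bases after the start on the gene's strand. They are the distal start of Runx2 (chr17:44814748-44815047, reverse), the Nfix-207 start (chr8:84708169-84708468, reverse) and the proximal start of Runx3 (chr4:135152246-135152545, forward). The other 3 are centred on a site and read on the gene's strand, namely an Nfib intron site open in all 15 liver, kidney and lung sets and no B cell set (chr4:82400074-82400373, reverse), an Nfia site over an exon open in the 5 B cell sets only (chr4:98020789-98021088, forward) and a Runx1 site over an exon open in the 5 lung sets only (chr16:92687258-92687557, reverse). Capitals mark the arms of the NFI palindrome (TTGGC or GCCAA) and RUNX cores (TGTGGT as well as TGCGGT, or the reverse complement of either).
Runx2 distal start: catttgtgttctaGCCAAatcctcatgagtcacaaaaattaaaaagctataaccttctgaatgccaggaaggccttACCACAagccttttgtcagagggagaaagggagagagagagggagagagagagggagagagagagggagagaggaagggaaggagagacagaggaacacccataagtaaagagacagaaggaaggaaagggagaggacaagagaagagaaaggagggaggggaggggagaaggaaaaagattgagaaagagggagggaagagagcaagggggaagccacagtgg
Nfix-207 start: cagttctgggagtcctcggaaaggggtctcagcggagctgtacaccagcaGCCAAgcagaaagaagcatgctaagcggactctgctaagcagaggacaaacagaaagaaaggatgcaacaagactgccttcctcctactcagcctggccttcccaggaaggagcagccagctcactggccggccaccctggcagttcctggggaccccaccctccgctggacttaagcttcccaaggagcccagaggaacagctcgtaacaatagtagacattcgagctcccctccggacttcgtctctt
Runx3 proximal start: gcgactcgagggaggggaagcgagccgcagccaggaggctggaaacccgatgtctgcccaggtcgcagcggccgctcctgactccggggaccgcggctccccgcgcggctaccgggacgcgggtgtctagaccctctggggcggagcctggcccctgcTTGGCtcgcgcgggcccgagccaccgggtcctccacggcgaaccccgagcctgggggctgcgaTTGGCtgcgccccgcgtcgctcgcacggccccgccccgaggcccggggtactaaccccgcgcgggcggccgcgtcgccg
Nfib site: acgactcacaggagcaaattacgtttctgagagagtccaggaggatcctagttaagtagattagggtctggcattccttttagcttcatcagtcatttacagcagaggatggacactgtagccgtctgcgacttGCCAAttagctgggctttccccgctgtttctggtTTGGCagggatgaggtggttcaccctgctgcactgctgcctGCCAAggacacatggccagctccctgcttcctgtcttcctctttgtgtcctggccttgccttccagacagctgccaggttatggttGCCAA
Nfia site: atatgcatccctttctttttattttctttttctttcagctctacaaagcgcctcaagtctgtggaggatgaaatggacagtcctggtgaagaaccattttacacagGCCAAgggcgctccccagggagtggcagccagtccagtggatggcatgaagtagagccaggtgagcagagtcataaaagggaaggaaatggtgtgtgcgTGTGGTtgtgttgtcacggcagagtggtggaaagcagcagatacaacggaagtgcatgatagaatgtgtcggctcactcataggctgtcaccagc
Runx1 site: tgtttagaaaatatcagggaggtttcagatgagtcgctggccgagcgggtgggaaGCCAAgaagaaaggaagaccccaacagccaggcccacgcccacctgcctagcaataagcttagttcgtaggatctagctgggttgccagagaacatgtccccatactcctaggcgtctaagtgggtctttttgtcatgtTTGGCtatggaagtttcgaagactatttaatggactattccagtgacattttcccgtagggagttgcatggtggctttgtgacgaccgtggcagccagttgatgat
The start of Runx3 is rich in G and C (77.7%, 44 CpG in 300 bases), whereas the distal start of Runx2 holds no CpG and 1 RUNX core. The Nfib intron site holds 4 NFI arms.

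Nfib (chr4:82290173-82705750, reverse strand, 416 kb) showed the largest tissue difference of the 8 genes. Liver sets had 110, 97, 102, 100 and 89 hotspots in its window (in the order B6x129, B6xC3H, B6xCAST, B6xPWK, B6xSPRET, as in every list of 5 here). Kidney sets had 89, 71, 82, 83 and 78, and lung sets had 100, 63, 112, 74 and 72. B cell sets had 12, 2, 11, 10 and 3, so no B cell set came near any other set. In covered length, the B cell sets held 2.22, 0.284, 2.5, 2.02 and 0.605 kb, against 17.4 to 55.9 kb in the other 15 sets. Scaled to the total of the set, coverage was 2.05 ± 1 kb (SD, n = 5) in B cells, 33 ± 1.06 kb in liver, 29.9 ± 1.85 kb in kidney and 30.4 ± 1.56 kb in lung. Each tissue was compared with the mean of the other 3 on log2(scaled bp + 200) over 19161 windows that passed a filter on low coverage, with hybrid as a term (limma, Benjamini-Hochberg adjusted). Nfib was lower in B cells by a log2 difference of -3.94 ± 0.17 (SE, adjusted p = 1.5e-13), a 15.4-fold difference.

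Most windows differ between tissues on this scale, so a call alone says little. The share of all windows in which the sets of a tissue lie apart from the other sets was not counted. Such separation, where given above or below, is therefore not read as particular to these genes. Of all windows, 26.8% were higher and 40.2% lower in liver, 24.4% and 32.4% in kidney, 23.3% and 28.3% in lung, and 48.7% and 28.7% in B cells. Of the 8 genes, 4 were higher and 3 lower in liver, 3 and 4 in kidney, 4 and 1 in lung, and 4 and 2 in B cells, and these shares of called windows (7, 7, 5 and 6 of 8) stand beside 67%, 56.8%, 51.7% and 77.3% of all windows. The sizes carry the description, and they are read against the median of all windows, which was 0.23 for B cells, -0.13 for liver, -0.08 for kidney and -0.06 for lung. Without scaling, these medians were -0.49, 0.44, 0.14 and -0.14, and 12.2% rather than 62.9% of the B cell calls, 89.2% rather than 40% of the liver calls, 75.3% rather than 43% of the kidney calls and 35.7% rather than 45.2% of the lung calls were in the higher direction. Each value was also tested alone by exact permutation of tissues within hybrids (two-sided, smallest possible p 9.77e-04), where 10 of the 25 called values had an unadjusted p under 0.05. These were Nfia in liver and B cells, Nfib in B cells, Nfix in kidney, Runx1 in kidney and lung, Runx2 in liver, Runx3 in liver and B cells, and Cbfb in liver. The other 15 had p from 0.0547 to 0.566, Runx1 in B cells (0.0791) and Runx2 in kidney (0.189) and lung (0.0645) among them. The permuted values include the differences of the other tissues, so a large difference in another tissue raises the p of a value. The share of all windows with such a p was not counted.

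**Figure D1:**
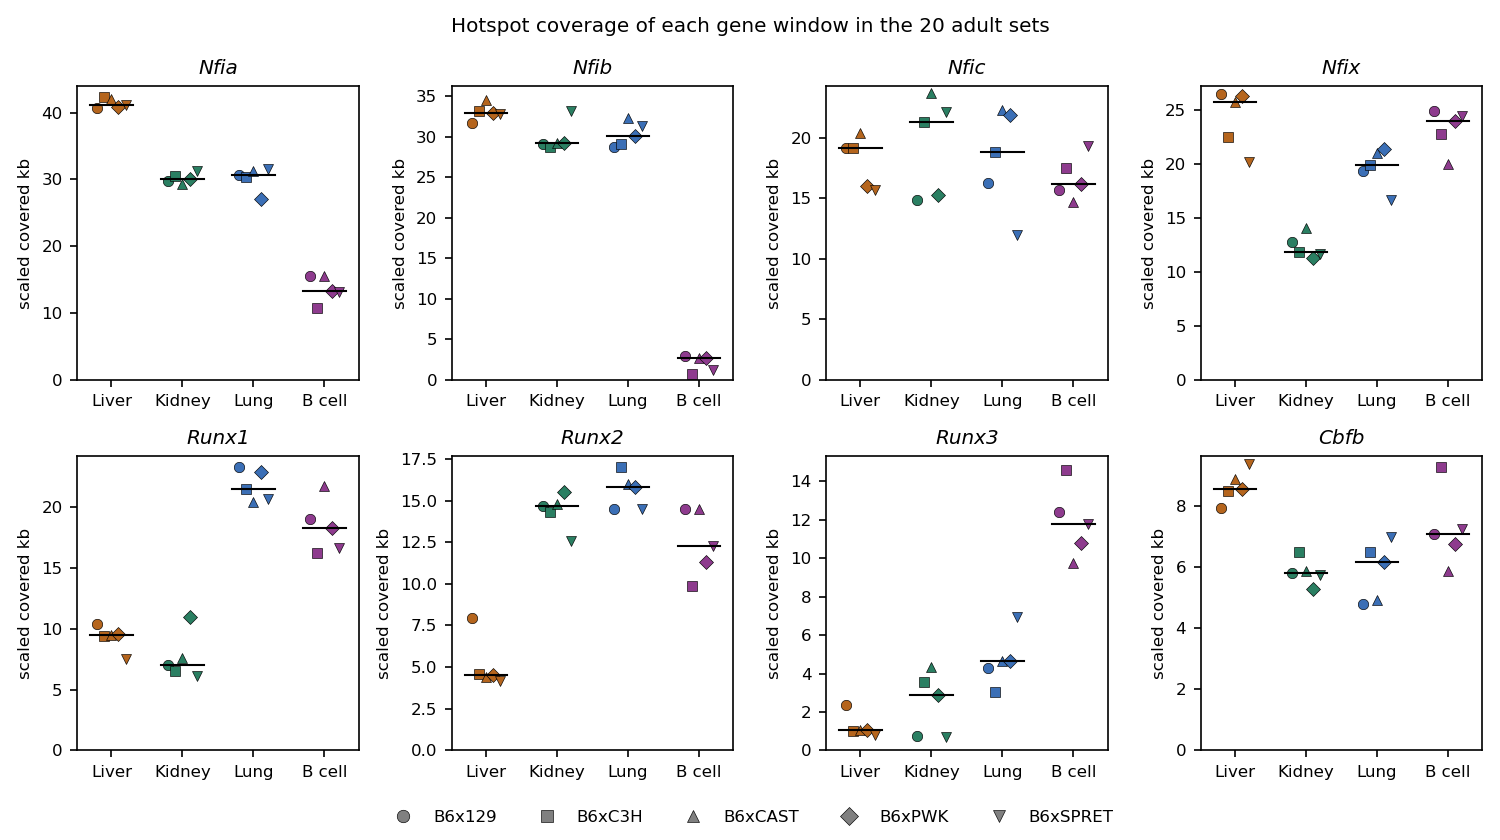
Scaled covered kb (y axis) of each gene window in the 20 adult sets, by tissue (x axis); symbols are hybrids and bars are medians of 5 sets. Nfib in B cells lies between 0.716 and 2.95 kb and Runx3 in B cells between 9.76 and 14.6 kb, both apart from the other 15 sets.

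Nfia (chr4:97772734-98118874, forward strand, 346 kb) was also lowest in B cells, with a smaller fall, and highest in liver. Its window held 100 to 130 hotspots in liver, 62 to 91 in kidney, 52 to 115 in lung and 13 to 29 in B cells. Scaled coverage was 41.4 ± 0.749 kb (SD, n = 5) in liver, 30.2 ± 0.731 kb in kidney, 30.2 ± 1.8 kb in lung and 13.6 ± 1.98 kb in B cells. The B cell sets and the liver sets each lay apart from all other sets. The log2 difference was -1.30 ± 0.07 (limma, adjusted p = 3.6e-12) in B cells and 0.84 ± 0.07 (adjusted p = 4.5e-09) in liver. Kidney and lung were both higher than the mean of the other tissues by 0.23, a call that the low B cell sets enter, and between them the difference was 0.00 (adjusted p = 0.99). The unscaled kidney and lung differences (0.46 and 0.14) were not called. The window also holds E130114P18Rik.

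Because the B cell sets pull each mean of 3 tissues, the tissues were also compared in pairs in the same fit, an addition made after seeing the data. Pairs differed in either direction in 52.8% of all windows for liver and kidney, 59.7% for liver and lung, 75.8% for liver and B cells, 43.8% for kidney and lung, 73.5% for kidney and B cells and 69.3% for lung and B cells. For Nfia the order was liver, then kidney and lung together, then B cells. For Nfib no pair among liver, kidney and lung differed (log2 differences of 0.14, 0.12 and -0.02, adjusted p = 0.58, 0.63 and 0.94), so its order has a single step, to B cells. The unscaled liver minus lung difference for Nfib (0.65) was called with adjusted p = 0.049.

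Nfix (chr8:84699876-84800344, reverse strand, 100 kb) was low in kidney and not in B cells. Kidney sets covered 12.8, 11.9, 14.1, 11.3 and 11.7 scaled kb, below each of the other 15 sets, which ran from 16.7 to 26.5 kb. The kidney difference was -0.84 ± 0.08 (limma, adjusted p = 3.3e-08). Liver was higher by 0.44 ± 0.08 (adjusted p = 4.5e-05), but by 0.12 and not called with a flank of 50 kb. The B cell difference of 0.36 ± 0.08 (adjusted p = 2.5e-04) became -0.40 without scaling and -0.05 by number of hotspots. With no flank it was 0.15 and not called. Against the median of all windows it was 0.13 with scaling and 0.09 without. B cell sets had fewer hotspots (20 to 27) than the other tissues (30 to 73) and covered 9.02 to 18.8 kb with them. In pairs, liver and B cells did not differ (0.06, adjusted p = 0.58), and liver was above lung by 0.30 (adjusted p = 0.0095). Its window is shared with 5 other protein-coding genes, Lyl1 and Nacc1 among them.

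Nfic (chr10:81396186-81455635, reverse strand, 59.5 kb) passed in no contrast. Its scaled coverage was 18.1 ± 2.1 kb (SD, n = 5) in liver, 19.5 ± 4.09 kb in kidney, 18.3 ± 4.28 kb in lung and 16.7 ± 1.77 kb in B cells, with overlapping groups. The log2 differences were 0.02, 0.13, -0.01 and -0.14, each with an SE of 0.12. Its window is shared with 6 other protein-coding genes (Fzr1, Dohh, Smim24, Celf5 and 2 gene models), so hotspots there cannot be assigned to Nfic alone. The B cell difference was -0.41 and called with no flank, -0.89 and called without scaling, and 0.29 with a flank of 50 kb. The correlation of scaled coverage over the 20 sets was 0.95 for Nfia and Nfib, 0.16 for Nfia and Nfic and -0.18 for Nfia and Nfix. The 20 points share tissues and hybrids, so these values describe the sets only.

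Runx3 (chr4:135120652-135177990, forward strand, 57.3 kb) was highest in B cells. B cell sets covered 9.34, 5.8, 9.18, 8.12 and 5.74 kb of its window as deposited. Lung sets covered 4.98, 1.81, 6.2, 3.83 and 5.46 kb, kidney sets 0.839, 3.83, 4.99, 3.37 and 0.626 kb, and liver sets 4.19, 1.4, 1.25, 1.34 and 0.869 kb. In scaled kb, every B cell set (9.76 to 14.6) was above every other set (0.718 to 6.96). The B cell difference was 2.31 ± 0.30 (limma, adjusted p = 1.1e-06), a 4.94-fold difference, and it was 1.56 without scaling (adjusted p = 1.9e-04). Liver was lower by -1.84 ± 0.30 (adjusted p = 2.7e-05) and kidney by -1.0 ± 0.30 (adjusted p = 0.009, and not called without scaling, -0.75, with no flank, -0.72, without B6x129, -0.63, or without B6xSPRET, -0.68).

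The liver set of B6x129 stood apart at Runx3, with 17 hotspots against 5 to 7 in the other liver sets, and without B6x129 the liver difference was -2.16. Kidney sets of Runx3 fell into a low pair (B6x129 and B6xSPRET, 5 and 3 hotspots) and a higher trio (14 or 15). In pairs, kidney was below lung (-1.14, adjusted p = 0.017) and lung below B cells (-1.33, adjusted p = 0.0037), while liver and kidney did not differ beyond their spread (-0.63, adjusted p = 0.16). Both of these differences with lung were not called without scaling. Lung sets had 2 to 5 of the 5 listed B cell genes and 2 to 4 of the 4 myeloid genes open. Liver sets had 2 to 4 of each list open, and kidney sets 1 to 2 of each. The part of cells of these types in the lung values was not tested.

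Runx1 (chr16:92601466-92826149, reverse strand, 225 kb) was highest in lung. Lung sets had 70, 45, 67, 53 and 42 hotspots and B cell sets 34, 19, 47, 33 and 19. Liver sets had 45, 21, 23, 26 and 18, and kidney sets 33, 24, 31, 39 and 19. In scaled kb, lung (20.4 to 23.3) and B cells (16.2 to 21.7) lay above liver (7.48 to 10.4) and kidney (6.13 to 11) without overlap. The differences were 0.99 ± 0.09 in lung (limma, adjusted p = 4.1e-08), 0.66 ± 0.09 in B cells (adjusted p = 1.2e-06), -0.63 ± 0.09 in liver (adjusted p = 3.6e-06) and -1.02 ± 0.09 in kidney (adjusted p = 2.0e-08). Without scaling, the B cell and liver differences were -0.09 and -0.02 and were not called, while lung (0.90) and kidney (-0.79) were. Against the median of all windows, the B cell value was 0.44 with scaling and 0.40 without.

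Runx2 (chr17:44495987-44814797, reverse strand, 319 kb) was low in liver. Liver sets had 40, 15, 17, 19 and 14 hotspots in its window. Kidney sets had 50, 42, 48, 53 and 35, lung sets 51, 39, 67, 48 and 38, and B cell sets 25, 11, 36, 26 and 18. In scaled kb the liver sets (4.15 to 7.94) lay below all 15 others (9.84 to 17). The liver difference was -1.46 ± 0.10 (limma, adjusted p = 5.4e-10), and -1.61 without B6x129, whose liver set was again the highest of its tissue (7.94 against 4.58 scaled kb for the next). Kidney and lung were higher, by 0.53 and 0.68 (both SE 0.10, adjusted p = 2.7e-04 and 2.6e-05), and did not differ from each other (-0.11, adjusted p = 0.51). The B cell difference of 0.25 (adjusted p = 0.038) became -0.50 without scaling, and against the median of all windows it was 0.02 with scaling and -0.01 without. It was not called without B6xCAST (0.18), B6xPWK (0.28) or B6xSPRET (0.21). Part of the window is shared with Supt3.

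Cbfb (chr8:105170674-105217989, forward strand, 47.3 kb) was highest in liver. Scaled coverage was 8.65 ± 0.533 kb (SD, n = 5) in liver, 5.84 ± 0.438 kb in kidney, 5.88 ± 0.98 kb in lung and 7.24 ± 1.26 kb in B cells. Liver was higher by 0.46 ± 0.09 (limma, adjusted p = 1.0e-04) and by 1.06 without scaling. Kidney and lung were both lower by -0.28 ± 0.09 (adjusted p = 0.0092 and 0.0093), and with the 75000 highest-scoring hotspots of each set both were -0.01 and not called. The kidney call was also lost without B6xPWK (-0.25), and the lung call without B6x129 (-0.23). The B cell difference of 0.11 was not called, but it was 0.47 with no flank and 0.30 with a flank of 50 kb, both called. It became -0.64 without scaling and -0.25 with the 75000 highest-scoring hotspots. Against the median of all windows the B cell value was -0.12 with scaling and -0.15 without. The tissue order of Cbfb was therefore not that of any RUNX gene in scaled coverage, and its correlation over the 20 sets was -0.80 with Runx2, -0.25 with Runx1 and -0.15 with Runx3, whereas Runx1 and Runx3 had 0.72.

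**Figure D2:**
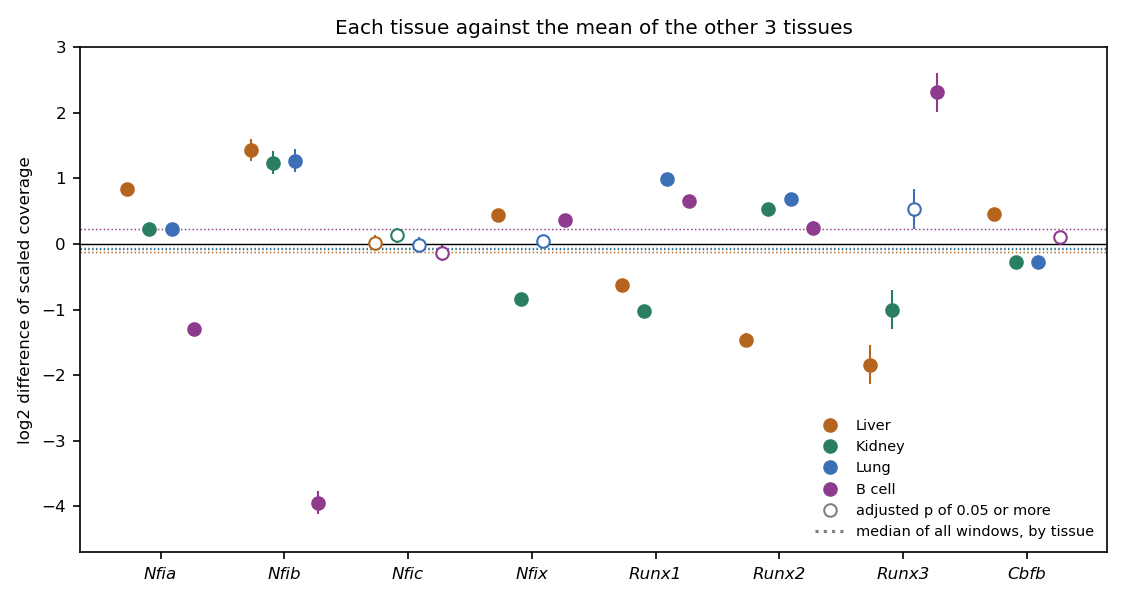
Log2 difference of scaled coverage (y axis, ± SE) of each tissue against the mean of the other 3 tissues for the 8 genes (x axis); filled points passed the adjusted threshold and dotted lines are medians of all 19161 windows. The points run from -3.94 (Nfib, B cell) to 2.31 (Runx3, B cell), and Nfic stays within 0.14 of zero.

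The 68 annotated transcripts of the 8 genes begin at 29 start clusters (starts of a gene within 500 bp joined), and a start was counted as open where a hotspot lay within 250 bp. Of the 29, 9 were open in all 20 sets, 4 in no set and 16 in some, against 23.7%, 41% and 35.3% of 52275 start clusters of all protein-coding genes. The starts open in all sets were both main starts of Runx1, the proximal start of Runx2, the Cbfb start, the Nfix start at its 5′ end, 2 starts of Nfia and 2 of Nfic. Presence in the 5 sets of a tissue was compared with the other 15 by Fisher's exact test (two-sided, adjusted within each tissue). Of all starts, 1.44% were higher and 0.067% lower in liver, 1.01% and 0.143% in kidney, 0.48% and 0.00383% in lung, and 0.434% and 3.36% in B cells. Of the 29, none was higher in any tissue, 3 were lower in B cells and 1 was lower in kidney. The Fisher test ignores hybrid, and an exact permutation test within hybrids called none of these starts nor any other, its smallest adjusted p over all starts being 0.0539.

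The main Nfib start (10 of its 12 transcripts, chr4:82505308-82505779) had a hotspot in 15 of 15 liver, kidney and lung sets and in 0 of 5 B cell sets. The hotspots there summed to 2134 to 8951 bp per set. Lengths at starts, here and below, are the summed full lengths of all hotspots within 250 bp of a start cluster. Several separate hotspots can add up in such a value. In the mESC set, 4 hotspots lay there. The Nfix-203 start (chr8:84774369) had the same pattern, 15 of 15 and 0 of 5, with a summed length of 339 to 3077 bp. Both tests gave an exact p of 6.45e-05.

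The distal start of Runx2 (7 of 13 transcripts, chr17:44814226-44814797) was open in 5 liver, 3 kidney, 5 lung and 0 B cell sets. Its hotspots summed to 622 to 913 bp in liver and 671 to 1056 bp in lung but 98, 163 and 189 bp in the 3 kidney sets. The proximal start (chr17:44735366-44736648) was open in all 20 sets, with 569 to 3021 bp, and 3 hotspots lay there in the mESC set. The liver, whose window held the least coverage of Runx2, thus had both starts open in all 5 sets, while the kidney, with more coverage, had the distal start open in 3. The fourth call was the Nfix-207 start (chr8:84708218), open in 5 liver, 0 kidney, 4 lung and 5 B cell sets. These last 2 calls were lost when any single hybrid was left out, a setting in which the smallest p the Fisher test can give rises to 5.49e-04, and the calls at the Nfib and Nfix-203 starts were kept. Where a hotspot had to cover the start base, only the Nfib call of these 4 was left.

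The proximal start of Runx3 (chr4:135152496-135153505, 4 transcripts) was open in 1 liver, 4 kidney, 5 lung and 5 B cell sets, which did not pass the adjusted test in any tissue. Its summed hotspot lengths separate the tissues more than presence does. They were 2946, 2358, 2673, 2727 and 2331 bp in B cells, 1627, 345, 1576, 628 and 1508 bp in lung, at most 1456 bp in kidney and 814 bp in the single liver set. The summed lengths in B cells lay above every other set. The distal start of Runx3 (chr4:135120652) was open in 4 liver, 4 kidney, 5 lung and 5 B cell sets with a summed length of at most 458 bp. At Runx1 both main starts were open in all 20 sets, and the distal one (chr16:92825778-92826149) had 2507, 1656, 3574, 2529 and 1778 bp in B cells and 1718, 468, 1786, 1191 and 1340 bp in lung. It had 298 to 606 bp in liver and 159 to 356 bp in kidney, below every B cell set and, for kidney, below every lung set. These summed lengths were not tested and move with the breadth of hotspots in a set.

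Several starts of single transcripts followed a tissue pattern without passing the test. Nfia-207 was open in the 10 liver and kidney sets and in no lung or B cell set. Nfia-206 was open in 5 liver, 1 kidney, 5 lung and 0 B cell sets, and Nfib-211 in 5, 0, 4 and 0. Runx1-205 was open in 0 liver, 1 kidney, 5 lung and 1 B cell sets, and was called higher in lung where a hotspot had to cover the start base. The most 5′ start of Nfib (Nfib-212), Nfix-206, Nfic-206 and Nfic-207 had no hotspot in any set.

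**Figure D3:**
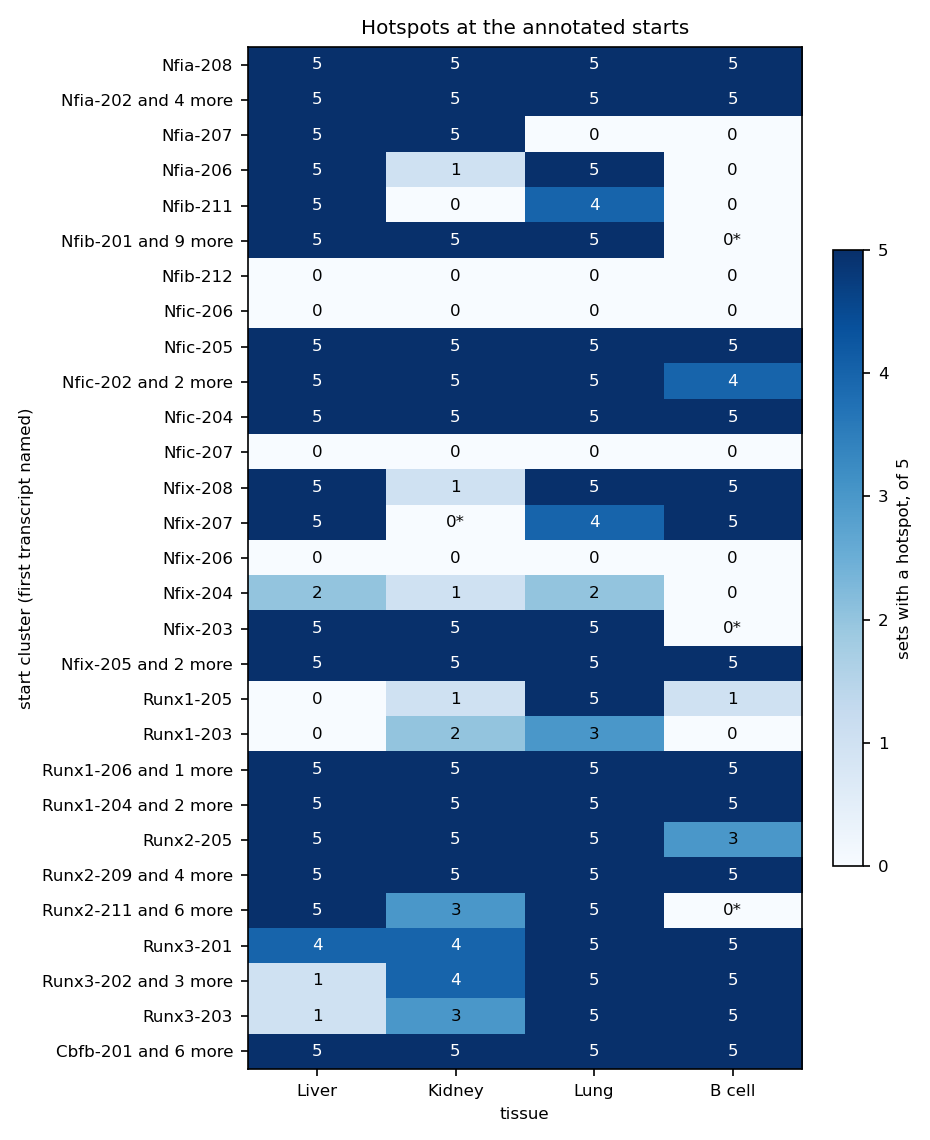
Number of sets with a hotspot within 250 bp (0 to 5, in each cell) at the 29 start clusters (rows) in the 4 tissues (columns); asterisks mark the 4 calls. The Nfib-201, Nfix-203 and Runx2-211 clusters have 0 of 5 B cell sets, and Nfix-207 has 0 of 5 kidney sets.

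Hotspots of the 20 sets that overlapped were merged into DNase I hypersensitive sites (DHSs), 745754 in all and 862 in the 8 windows. These were 219 at Nfia, 197 at Nfib, 48 at Nfic, 75 at Nfix, 106 at Runx1, 135 at Runx2, 39 at Runx3 and 43 at Cbfb. Most lay in introns (670), with 136 in the flanks, 35 over exons and 21 at starts. A DHS was called higher in a tissue where it was found in all 5 of its sets and at most 2 of the other 15, or in 4 of its sets and none of the other 15, and lower in the mirrored case (Fisher's exact test, adjusted within each tissue). Of all DHSs, 5.53% were higher and 0.106% lower in liver, 4.16% and 0.216% in kidney, 3.27% and 0.0483% in lung, and 1.08% and 2.5% in B cells. Of the 862, 70 were higher and 2 lower in liver (8.12% and 0.232%), 44 and 3 in kidney (5.1% and 0.348%), 39 and 0 in lung (4.52% and 0%), and 8 and 51 in B cells (0.928% and 5.92%). The median width was 296 bp in the 862 and 227 bp in all DHSs, and 30.5% against 42.2% were found in a single set, and the part of this in the shares called was not tested.

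At the NFI genes, 45 of 539 DHSs (8.35%) were lower in B cells. Of these 45, 23 were open in all 15 other sets and no B cell set. For such all-or-none patterns, here and below, the share of all DHSs was not counted. Nfib gave 21 of 197 DHSs lower in B cells and none that was higher, and only 2 of its DHSs were open in all 5 B cell sets. Nfia gave 13 of 219, Nfix 8 of 75 and Nfic 3 of 48. Nfix combined such sites with 11 DHSs open in all 20 sets (14.7% of its DHSs, against 3.77% of all DHSs). Some of these 11 lay in the flanks of a window shared with 5 other protein-coding genes, so they cannot be assigned to Nfix alone. The share was 12.5% at Nfic, 9.3% at Cbfb and 1.02% to 2.56% at the remaining genes. Nfia held 24 DHSs higher in liver, 10 in kidney and 7 in lung, and 2 higher in B cells. One of the latter, 606 bp over an exon 248 kb from the 5′ end of Nfia (chr4:98020636-98021241), was open in 5 B cell sets and no other, and the other (chr4:97984394-97984735) in 4. Nfib held 22 higher in liver, 12 in kidney and 11 in lung, so windows of near equal coverage in these 3 tissues were built from partly different sites.

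At the RUNX genes, 5 of 280 DHSs were lower in B cells (1.79%) and 6 were higher (2.14%). Runx1 had 12 DHSs higher in lung (11.3% of 106), 5 in kidney, 3 in liver and 2 in B cells. Its widest DHS found in the 5 lung sets and no other set, 1081 bp over an exon 139 kb from the 5′ end (chr16:92686868-92687948), is the Runx1 site printed above. Of its B cell sites, chr16:92709694-92710134, 116 kb from the 5′ end, was open in 5 B cell sets and none of the other 15. A large Runx1 DHS near the 3′ end (chr16:92608009-92613209, 5201 bp) was open in all 15 other sets and in no B cell set, and was 1 of 5 Runx1 DHSs with a CTCF hotspot in the mESC set.

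Runx2 had 14 DHSs higher in kidney (10.4% of 135), 6 higher in lung and 1 higher in B cells, and none in liver. Of the kidney sites, 9 were found in the 5 kidney sets and no other, and neighbours such as chr17:44587251-44587851 and chr17:44588016-44588871 lay side by side in an intron. Runx3 had 3 DHSs higher in B cells (7.69% of 39) and 1 each in liver, kidney and lung. These 3 were intron sites 4.67 and 36.9 kb from the 5′ end and a site in the 3′ flank 77.5 kb away (chr4:135197889-135198419). Cbfb had 11 of 43 DHSs higher in liver (25.6%) and none higher in another tissue, and 7 of the 11 were open in the 5 liver sets only. Of those 11, 5 lay in the flanks, 1 over an exon and 5 in introns, and the window also holds D230025D16Rik.

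**Figure D4:**
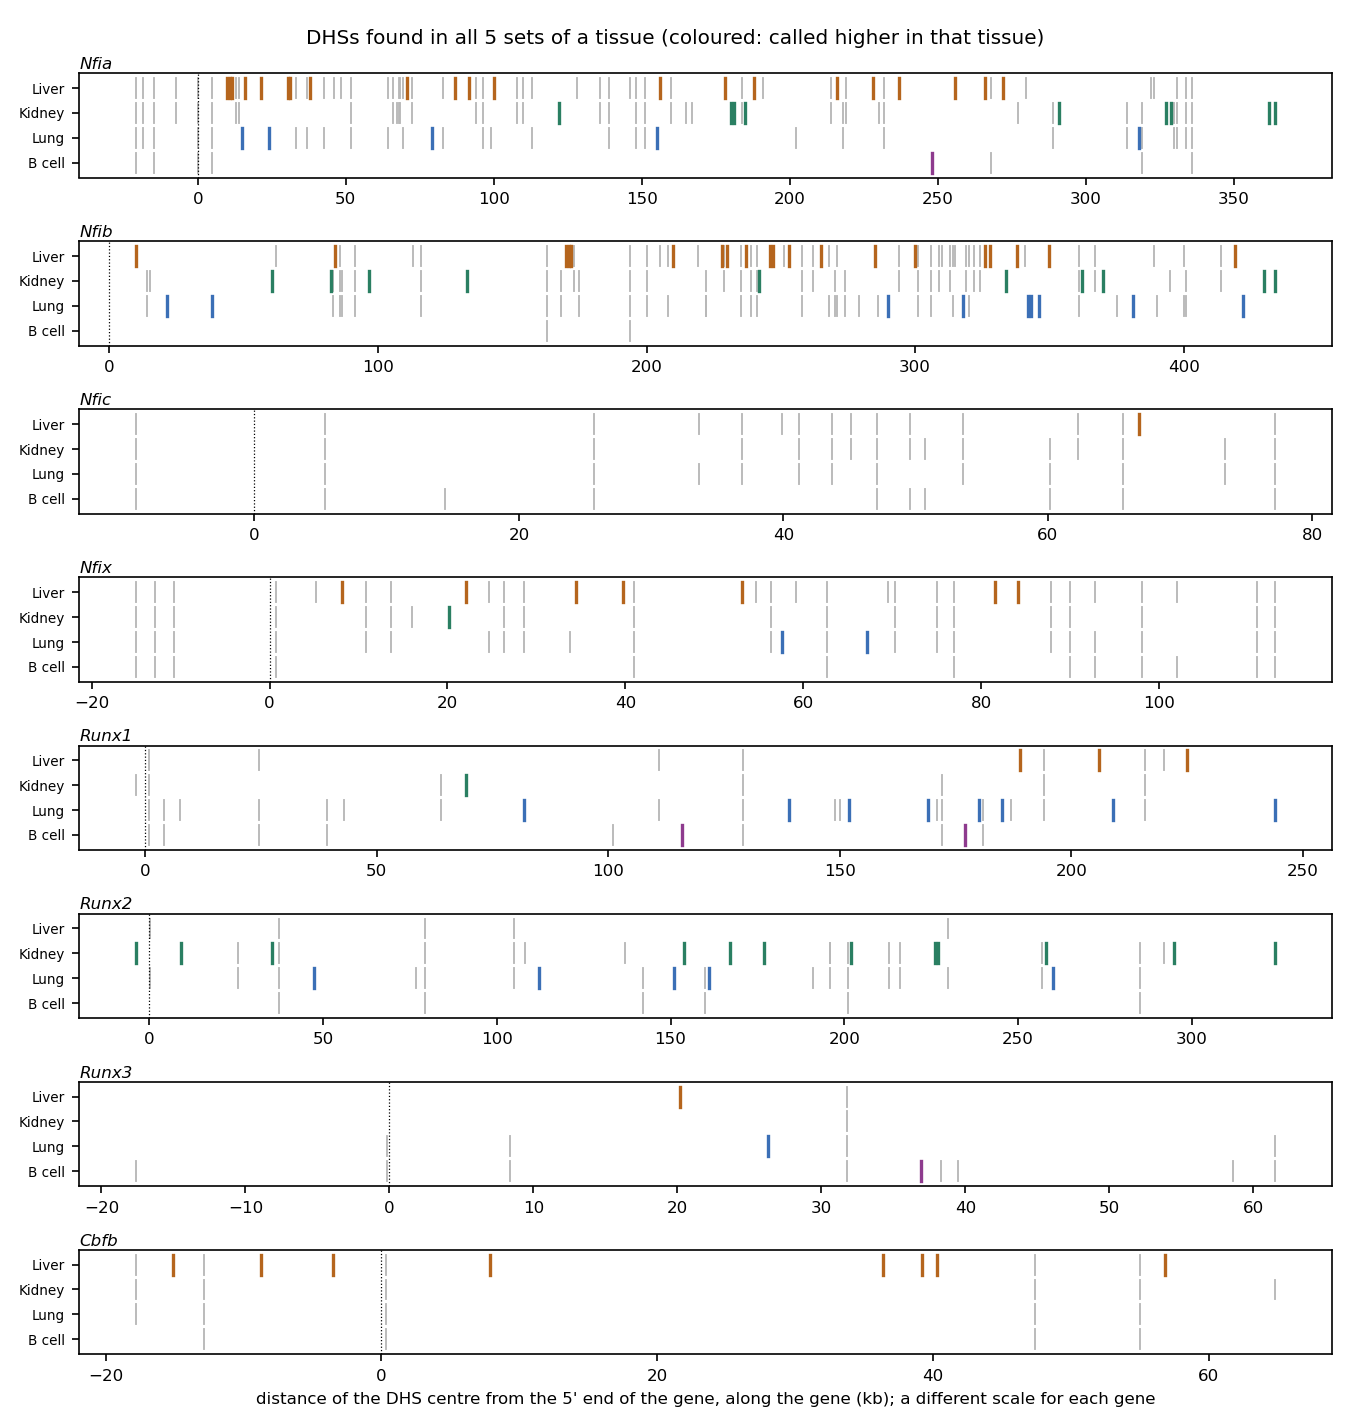
Position of each DHS found in all 5 sets of a tissue (kb from the 5′ end of the gene on the x axis, 1 row per tissue, 1 panel per gene); coloured bars were called higher in that tissue. For Nfib, 2 such DHSs belong to B cells, against 59 for liver, 45 for kidney and 42 for lung.

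**Figure D5:**
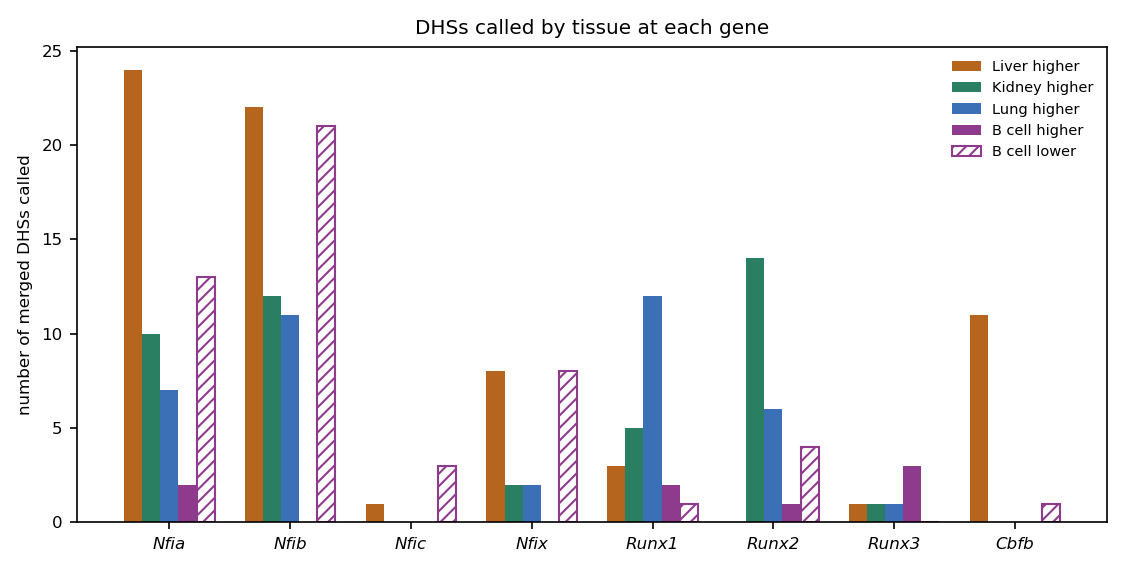
Number of DHSs called at each gene (y axis) as higher in liver, kidney, lung or B cells (filled bars) or lower in B cells (hatched bars). Nfib has 21 lower in B cells, Runx1 12 higher in lung, Runx2 14 higher in kidney and Cbfb 11 higher in liver.

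Hybrid was compared in the same way, each hybrid against the mean of the other 4 with tissue as a term. No window of the 8 genes was called in any of the 5 contrasts (limma). Of all windows, 0.0313% were called for B6x129, 0.0313% for B6xC3H, 0.0209% for B6xCAST, 0.104% for B6xPWK and 0.157% for B6xSPRET. At an unadjusted p under 0.05, 1, 2, 0, 1 and 1 of the 8 genes passed. These were Runx2 in B6x129 (0.26 ± 0.11), Nfib (-0.39 ± 0.18) and Cbfb (0.20 ± 0.09) in B6xC3H, Runx1 in B6xPWK (0.21 ± 0.10) and Runx1 in B6xSPRET (-0.24 ± 0.10), with adjusted p of 0.31 to 0.88. An exact permutation test of tissue-wise hybrid labels gave 3 of 40 values with an unadjusted p under 0.05, the lowest being 0.032. At single DHSs of the 8 windows found in 4 of 5 hybrids, the missing hybrid was B6xSPRET in 22 of 34 in liver (64.7%, against 47.5% over all DHSs) and 25 of 41 in kidney (61% against 49.9%). It was B6xC3H in 26 of 46 in lung (56.5% against 61.3%) and 12 of 16 in B cells (75% against 59.7%). In each tissue this was the hybrid whose set had the fewest hotspots, and its part was not tested.

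The mESC DNase set (115211 hotspots, 42.4 Mb, 1 set without a repeat) had 38 hotspots in the Nfib window, 21 in Nfix, 18 in Nfic and 11 in Nfia. It had 16 in Runx2, 13 in Runx1, 10 in Cbfb and 7 in Runx3. At Nfib they covered 11.5 kb, more than any B cell set (0.284 to 2.5 kb) and less than any liver, kidney or lung set, a comparison of sets of different depth. At Nfia the order was the other way, with 2.99 kb in mESC and 4.24 to 14.6 kb in B cells. Of the 29 start clusters 8 had an mESC DNase hotspot, and of the 862 adult DHSs 80 overlapped one. The CTCF set had 19 hotspots at Nfix, 17 at Nfib, 13 at Nfic, 9 at Cbfb, 8 at Runx2, 6 at Runx1, 5 at Runx3 and 2 at Nfia. No start cluster of the 8 genes had a CTCF hotspot within 250 bp, and 55 of the 862 DHSs overlapped one. The shares with an mESC hotspot over all start clusters and all DHSs were not counted. These counts are therefore not read as particular to the 8 genes.

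The motif letters of the 2 families were searched on both strands in the 300 bases about each DHS centre. The NFI palindrome was found in 5 of the 862 (0.58%) and in 0.122% of all DHSs. A single arm, which is part of the palindrome and was added after seeing the data, was found in 50.9% and 48%, and a RUNX core in 25.5% and 23.8%. Among the 51 DHSs lower in B cells, 37 (72.5%) held an NFI arm, against 60.2% of all DHSs lower in B cells. Among the 8 higher in B cells, 3 (37.5%) held a RUNX core, against 31.1% of all such DHSs. Over RefSeq promoter windows of the same length (32851), the shares were 0.0365% for the palindrome, 46.7% for the arm and 22.4% for the RUNX core. These are matches of letters and not binding sites.

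A list of 17 genes of RUNX co-repressors, co-activators and partners was read in the same fit. Of these, 4 were higher and 5 lower in liver (median -0.04), 1 and 9 in kidney (-0.25), 5 and 0 in lung (0.03), and 10 and 3 in B cells (0.34), beside the medians and the shares of all windows called given above (in B cells 48.7% higher and 28.7% lower). Runx1t1, a co-repressor fused to RUNX1 in leukaemia, had a difference of -2.69 ± 0.23 in B cells, 2.08 ± 0.23 in lung and 1.57 ± 0.23 in kidney (limma, adjusted p = 2.7e-09, 5.3e-07 and 1.1e-05). Cbfa2t3, its relative, had 0.82 ± 0.09 in B cells and -1.13 ± 0.09 in liver (adjusted p = 4.0e-08 and 1.1e-09). Among the histone acetyltransferases, Ep300 was higher in B cells by 0.93 and Kat6a by 0.22, which is near the median of all windows, whereas Crebbp had -0.08 (not called) in B cells and was higher in liver by 0.41. Yap1, which can bind RUNX proteins, was lower in B cells by -0.86 and higher in liver (0.49) and lung (0.36).

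The windows outside 1 Mb whose scaled coverage followed each gene most closely over the 20 sets were Rbfox2 and Naaladl2 for Nfia (Pearson's r = 0.99 for both), Fermt2 and Dlc1 for Nfib (0.99), Mid1ip1 and Tmem80 for Nfic (0.70 and 0.69) and Lcp1 and Uvrag for Nfix (0.94 and 0.93). They were Gpr141 and Hk2 for Runx1 (0.94 and 0.93), Dgkg and Sptbn1 for Runx2 (0.95), Ccnd2 and Pigf for Runx3 (0.94 and 0.93) and Tnfaip8l1 and Smim10l1 for Cbfb (0.92 and 0.91). The rank correlation was lower for some, 0.44 for Fermt2 and 0.57 for Tmem80. The sets of a tissue are alike, so these values rest mainly on 4 tissue levels.

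RNA was counted in 17 libraries with only 283725 to 809337 expected counts on genes each, so the 8 genes had few. Nfib had 4 to 10 expected counts in the 4 liver libraries, 6 to 15 in kidney, 5 to 14 in lung and 0 in all 5 B cell libraries. Nfix had 15 to 66 in B cells, 1 to 3 in liver, 0 to 2 in kidney and 3 to 11 in lung, but exons of Lyl1 and G430095P16Rik on the other strand overlap those of Nfix, and how strand was used in counting is not given in the sources used here. Nfia and Cbfb had 0 in the 4 liver libraries, the tissue in which their scaled coverage was highest, and in B cells Nfia had 0 and Cbfb 1 to 5. Nfic had 8 to 19 in kidney and 5 to 11 in B cells, against 1 to 7 in lung and 0 to 4 in liver. Exons on the other strand also overlap those of Nfia (E130114P18Rik), Nfic (Gm16104) and Runx1 (Gm26626). Runx1 had 1 to 10 in lung and at most 2 elsewhere. Runx3 had at most 1 in any library, B cells included. Runx2 had 6 to 8 in lung, 2 to 11 in B cells and at most 2 elsewhere, and Runx2os1 overlaps it on the other strand. These values are given without a test and are not read as transcript levels.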

How the data were processed

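The 138 adult DNase-seq libraries (67 samples) were pooled per hybrid and tissue by the authors, and hotspots were called with hotspot2 at an FDR of 5% on mm10. The deposited hotspot files hold a position and the −log10 FDR (at most 100). The deposited RNA tables hold expected counts per gene. The submitters' notes list BWA, Trimmomatic, STAR and RSEM without versions. The reported values do not use DNase read depth, which is unknown from these files, and their precision is the spread over 5 sets. The sets are pools of mice, so p-values do not measure the spread between mice. In the tissue fits they measure how far tissue differences vary between hybrids, since hybrid is a term. In the hybrid fits they measure how far hybrid differences vary between tissues. Fisher's test ignores hybrid.

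Here hotspot bp were summed per window (20 kb flanks), scaled to equal set totals, and fitted as log2(bp + 200) with limma 3.58.1 (trend, R 4.3.3) over 19161 windows with at least 500 scaled bp in at least 4 sets, with hybrid or tissue as the other term and the Benjamini-Hochberg adjustment at 0.05. Hybrids are the same 5 crosses in each tissue, and this sets the block. Tissue pairs, differences minus the median, and the single NFI arm were added after the values were seen. Starts and DHSs were tested with Fisher's exact test (SciPy 1.17.1), two-sided, 5 sets against 15. Single values were also tested by exact permutation within hybrids (1024 arrangements) or tissues (625). All 8 genes are named, with other genes by list or by the 2 highest correlations beyond 1 Mb. The 8 genes and all lists were chosen with earlier results of these data known. In simulated data for liver (19161 windows, 200 changed by 2 on the log2 scale), 99.5% were recovered and 6.57% of calls were false. The other simulated windows had no tissue effect, whereas 67% of windows were called in liver in the data. These rates therefore do not carry over to the calls reported, many of which are of smaller differences. A marker gene and a start sequence are not reported here.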

Additional observations from a re-analysis of the deposited data

Results flagged for a closer look

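Of 64 groups of 5 sets (8 genes, 4 tissues, covered and scaled kb), 6 held a set far from the other 4 of its tissue by Dixon's criterion, which chance gives in about 1 in 20 groups. At Runx2 the B6x129 liver set covered 14 kb (next 6.18 kb) and 7.94 scaled kb (next 4.58). At Runx3 the same set covered 4.19 kb (next 1.4 kb) and 2.37 scaled kb (next 1.08). This set also had the most hotspots and covered bp of all 20. The other cases were Nfia in the B6xPWK lung set, low at 27.1 scaled kb (next 30.4), and Nfib in the B6xSPRET kidney set, high at 33.2 scaled kb (next 29.3).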

How the results depend on the processing

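Windows called by tissue numbered 18208 and 17714 to 17961 with a hybrid left out (18067 without the hybrid block). Of 32 tissue values of the 8 genes, 25 were called, 23 to 25 with a hybrid left out, 25 without the block, 22 unscaled, 23 by number of hotspots, and 10 had an unadjusted p under 0.05 by exact permutation. In B cells the sign turned for Nfic with 50 kb flanks (0.29), for Nfix unscaled (-0.40) and by number (-0.05), for Runx1 (-0.09) and Runx2 (-0.50) unscaled, and for Cbfb unscaled (-0.64) and with the 75000 highest-scoring hotspots (-0.25). Dropping the scaling shifted all windows (median 0.23 to -0.49), and against the median the values were 0.09 for Nfix, 0.40 for Runx1, -0.01 for Runx2 and -0.15 for Cbfb. The cause of the other turns was not tested. Windows called by hybrid went from 47 to 15 without the tissue block, 84 with no filter, 20 with the 75000 highest-scoring hotspots, 24 with no flank, 84 with 50 kb flanks, 29 by number and 21 to 68 with a hybrid left out, the 21 being without B6xSPRET. None was at the 8 genes by limma, and 3 values of theirs passed by unadjusted exact permutation. Start calls went from 3627 to 1965 with basic transcripts only, 1709 to 1872 with a hybrid left out and 0 in the block test by exact permutation within hybrids, whose smallest possible p is 9.77e-04 and whose smallest adjusted p was 0.0539. Those at the 8 genes went from 4 to 2 over the start base (1 of the 4 and Runx1-205), 2 with any hybrid left out and 0 in the block test. DHS calls went from 126117 to 72723 with the 75000 highest-scoring hotspots and 66045 to 75593 with a hybrid left out, and at the 8 genes from 217 to 122 and 120 to 137, the settings with a hybrid left out testing 4 sets against 12. Of the single values by tissue, 446 kept direction and call, 7 gained it, 20 lost it and 7 turned.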
